A study of Mus musculus with 6 samples.

Results

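The 8 cyclin-dependent kinase (CDK) inhibitor genes Cdkn1a, Cdkn1b, Cdkn1c, Cdkn2a, Cdkn2b, Cdkn2c, Cdkn2d and Cdkn3 were compared between mouse retinae of the Rb1/p107/Hells TKO genotype and of its Rb1/p107 DKO controls at postnatal day 21 (P21). The genes were chosen by symbol, and all 8 were among the 24062 genes of the count table. Each genotype had 3 RNA-seq libraries, made from retinal mRNA of C57BL/6 mice. In both genotypes a Cre transgene under Chx10 control deleted floxed Rb1, and p107 (Rbl1) was inactivated in every cell. TKO mice also carried floxed Hells alleles, whereas DKO mice did not lose Hells, so the genotypes differed by design in the chromatin remodeling gene Hells. Chx10-Cre acts in retinal progenitor cells in a mosaic pattern, and each retina therefore also held cells with intact Rb1 or Hells. No wild-type retina was part of the comparison. The labels do not say whether the libraries of a genotype came from separate animals, and the p-values measure only the spread between these libraries.

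CDK inhibitors hold back the kinases that drive the cell cycle. The INK4 proteins p16Ink4a (Cdkn2a), p15Ink4b (Cdkn2b), p18Ink4c (Cdkn2c) and p19Ink4d (Cdkn2d) bind CDK4 and CDK6 and keep them from D-type cyclins, which leaves RB active. The Cip/Kip proteins p21Cip1 (Cdkn1a), p27Kip1 (Cdkn1b) and p57Kip2 (Cdkn1c) bind cyclin-CDK complexes more widely, and Cdkn3 encodes a phosphatase that removes the activating phosphate from CDK2. In the retina, p27Kip1 and p57Kip2 take part in cell cycle exit of progenitor cells, and p27Kip1 is kept in mature Müller glia. Cdkn2a also encodes p19Arf from another first exon and reading frame, which stabilizes p53, and Cdkn1a is a p53 target. Several of these genes, Cdkn2c and the Arf transcript of Cdkn2a among them, are known to respond to E2F.

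The upstream sequences of 4 of the genes are shown as examples and do not stand for the family. Cdkn2a had the largest difference between the genotypes and has a start site for each of its products. Cdkn1a and Cdkn3 had each TKO value below each DKO value, and Cdkn1b had nearly equal means. Cdkn1c, Cdkn2c and Cdkn2d, not shown, also had each TKO value below each DKO value. The windows of Cdkn2c and Cdkn2d held no motif match, and a relation of motifs to the differences was not tested. Each run covers up to 250 bases before a RefSeq start site of GRCm38.p6 and stops before any annotated exon. The Cdkn1a run lies before the upstream start of that gene, 29090979. The window of its other start, 29093769, was all annotated exon and is not printed. Capitals mark matches of the motifs described after the sequences.
Cdkn1a, chr17:29090729-29090975, plus strand: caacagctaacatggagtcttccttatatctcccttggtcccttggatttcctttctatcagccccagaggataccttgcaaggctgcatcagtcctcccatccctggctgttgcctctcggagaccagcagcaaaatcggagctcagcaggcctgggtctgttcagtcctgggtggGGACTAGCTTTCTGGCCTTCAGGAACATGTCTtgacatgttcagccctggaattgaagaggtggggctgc
Cdkn2a (Ink4a start), chr4:89282193-89282442, minus strand: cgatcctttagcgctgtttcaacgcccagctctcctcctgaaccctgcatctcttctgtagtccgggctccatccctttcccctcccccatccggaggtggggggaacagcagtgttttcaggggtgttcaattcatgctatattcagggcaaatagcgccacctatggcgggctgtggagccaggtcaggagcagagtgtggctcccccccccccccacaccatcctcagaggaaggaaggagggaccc
Cdkn2a (Arf start), chr4:89294654-89294869, minus strand: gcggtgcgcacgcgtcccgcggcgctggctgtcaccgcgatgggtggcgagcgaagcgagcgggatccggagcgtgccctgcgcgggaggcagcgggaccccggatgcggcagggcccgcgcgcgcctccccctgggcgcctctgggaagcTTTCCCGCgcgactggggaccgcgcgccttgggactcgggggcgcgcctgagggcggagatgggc
Cdkn3, chr14:46760291-46760540, plus strand: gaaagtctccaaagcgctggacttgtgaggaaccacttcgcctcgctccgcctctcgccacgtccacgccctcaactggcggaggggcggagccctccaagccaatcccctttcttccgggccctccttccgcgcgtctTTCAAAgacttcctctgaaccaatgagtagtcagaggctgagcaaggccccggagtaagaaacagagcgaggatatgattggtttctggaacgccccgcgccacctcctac
Cdkn1b, chr6:134920151-134920400, plus strand: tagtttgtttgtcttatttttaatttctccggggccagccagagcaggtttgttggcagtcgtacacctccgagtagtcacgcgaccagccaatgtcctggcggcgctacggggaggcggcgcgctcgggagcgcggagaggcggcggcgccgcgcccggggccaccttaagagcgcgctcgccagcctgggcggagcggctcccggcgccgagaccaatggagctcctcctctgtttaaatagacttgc

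For 7 of the 8 genes (10 start sites) such a window was present, and Cdkn1c had none. The windows were searched on both strands for the E2F words TTTCCCGC, TTTCGCGC, TTTGCCGC and TTTGGCGC. The single match was TTTCCCGC, 99 bases before the RefSeq Arf start of Cdkn2a at 89294619. Of the 32851 windows of all genes, 1.86% held one of these words. The word TTTGAA of the CHR element, a site of the DREAM and MuvB complexes in mitotic genes, was searched in the same way. It matched on the opposite strand 111 bases before the start of Cdkn3 and 161 bases before that of Cdkn2b, and 16.0% of all windows held it. A p53 element, read as 2 half-sites of 10 bases at most 13 bases apart, was added after the Cdkn1a window had been read. It matched once, over 32 bases that begin 73 bases before the upstream start of Cdkn1a, and in 0.0639% of all windows. The element was read without mismatches, so an imperfect half-site beside those bases was left in small letters. These matches describe letters in a window and were not tested for binding.

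The libraries are named by genotype and replicate as TKO 1 to TKO 3 and DKO 1 to DKO 3. TKO libraries held 10343907 to 12888233 counts and DKO libraries 12635061 to 14203098. Counts were divided by library size scaled with edgeR's TMM method, and these normalized counts are on the scale of an average library. Hells stood at 60.8, 68.4 and 83.4 normalized counts in TKO 1, TKO 2 and TKO 3 and at 678, 523 and 395 in DKO 1, DKO 2 and DKO 3, so each library followed its label. The floxed Hells allele loses a single exon, and counts on its other exons can remain. Rb1 and Rbl1, targeted in both genotypes, averaged 748 and 20.3 normalized counts in TKO and 591 and 18.6 in DKO retinae. TKO 3 and DKO 3 lay closest to each other in Hells and in the rod and proliferation marker sums that follow. The summed normalized count of 8 rod markers was 684671, 583847 and 337187 in TKO 1 to 3 and 118827, 114917 and 219182 in DKO 1 to 3. That of 14 proliferation markers was 1893, 2925 and 4992 in TKO 1 to 3 and 18528, 14833 and 9711 in DKO 1 to 3. Of the lens markers, 9 genes had a sum of 118 to 121 in DKO retinae and of 630, 3537 and 531 in TKO 1 to 3. One of these, Lim2, was at 0 in all DKO libraries and in TKO 1.

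In TKO retinae, 5 of the 8 CDK inhibitors were lower and none was higher. The test was edgeR's quasi-likelihood test over 16904 genes, and all 8 genes passed its filter of 10 summed counts. An adjusted p of at most 0.05 was reached by Cdkn1a, Cdkn1c, Cdkn2a, Cdkn2c and Cdkn2d. With 1 retina left out, 3 of the 8 were called lower without TKO 1, 2 without TKO 2, DKO 1 or DKO 2, 5 without DKO 3 and 7 without TKO 3. Of all genes tested, 16.6% were called in either direction, 9.2% as lower and 7.35% as higher in TKO retinae. Cdkn1a, Cdkn2a and Cdkn2c also met the further criteria of the study, a change of at least 1 in log2 units and a mean of at least 10 normalized counts. These were met by 6.35% of all genes tested in either direction and by 4.38% as lower genes. Cdkn2a, at 11.8 over all libraries, reached the mean of 10 through its DKO libraries alone. Its group means were 1.55 for TKO and 22.4 for DKO. The median log2 fold change (log2FC, TKO over DKO) of the 8 genes was -1.20, and that of all genes tested was -0.011. In 6 of the 8 genes the TKO and DKO retinae did not overlap, all of them lower in TKO. Of all genes tested, 38.6% did not overlap in either direction and 20.6% did so as lower genes.

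**Figure D1:**
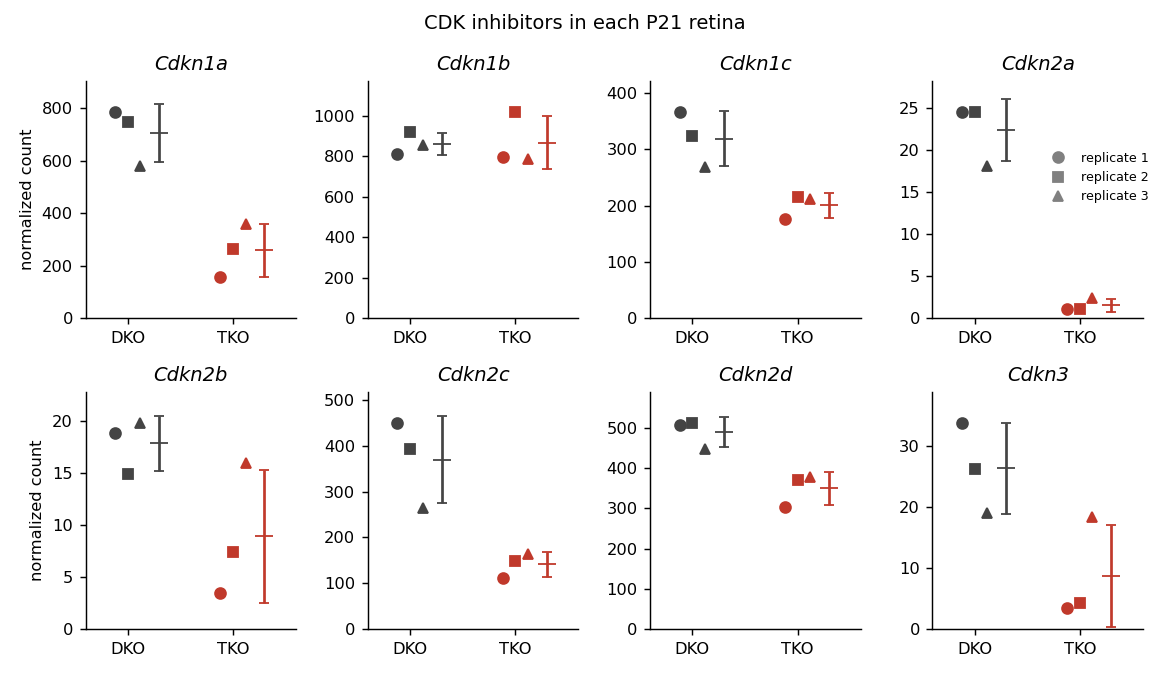
Normalized count (vertical axis, from 0) of each CDK inhibitor in the 3 DKO (grey) and 3 TKO (red) retinae, where the symbol gives the replicate and the bar beside the points the mean and SD. TKO points lie below DKO points for Cdkn1a, Cdkn1c, Cdkn2a, Cdkn2c, Cdkn2d and Cdkn3, and they overlap for Cdkn1b and Cdkn2b.

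Among the Cip/Kip genes, Cdkn1a fell most. Cdkn1a (chr17:29090976-29100727 of GRCm38) stood at 157, 262 and 358 normalized counts in TKO 1, TKO 2 and TKO 3 and at 786, 749 and 579 in DKO 1, DKO 2 and DKO 3. Each TKO retina was below each DKO retina, and TKO 3 and DKO 3 were the nearest to each other. The means were 259 ± 101 and 705 ± 110 (SD, n = 3 each), a 2.72-fold decrease, or log2FC -1.45 with SE 0.26 (edgeR adjusted p = 0.0112). An opposite-strand gene, AC167363.2, shares 273 exon bases with Cdkn1a, and without strand in the counting their reads could not be told apart. The adjusted p of Cdkn1a from edgeR was 0.0531 without TKO 2, 0.0504 without DKO 1 and 0.0510 without DKO 2.

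Cdkn1c (chr7:143458339-143461050), an imprinted gene, stood at 175, 215 and 211 normalized counts in TKO 1, TKO 2 and TKO 3 and at 366, 323 and 268 in DKO 1, DKO 2 and DKO 3. The groups did not overlap. The means were 200 ± 21.7 and 319 ± 49.4 (SD, n = 3 each), a 1.59-fold decrease with log2FC -0.67 with SE 0.151 (edgeR adjusted p = 0.0217). The adjusted p from edgeR rose to between 0.0670 and 0.0844 when TKO 1, TKO 2, DKO 1 or DKO 2 was left out. An antisense gene, Gm44732, shares 625 exon bases with Cdkn1c, and reads of the pair could be told apart only if the counting used strand.

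Cdkn1b (chr6:134920401-134925513) was not called. It stood at 798, 1020 and 787 normalized counts in TKO 1, TKO 2 and TKO 3 and at 811, 919 and 858 in DKO 1, DKO 2 and DKO 3, and the TKO values lay on both sides of the DKO values. The means of 868 ± 131 and 863 ± 54.2 (SD, n = 3 each) gave a log2FC of 0.0096 with a 95% interval from -0.25 to 0.27 (edgeR adjusted p = 0.962). Its sign depended on the scaling and turned to -0.15 with total counts only and to -0.025 with upper-quartile scaling.

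Of the INK4 genes, Cdkn2a showed the largest difference and was close to undetected in TKO retinae. Cdkn2a (chr4:89274471-89294653, minus strand) had 1, 1 and 2 counts in the TKO libraries and 26, 28 and 21 counts in the DKO libraries. All TKO values were at or under 3 counts, the limit that a count of 0 allows, and the groups were far apart. The summed counts were 4 and 75, a ratio of 14.7 after scaling with an exact 95% interval from 5.51 to 55.4, which covers counting error only. The edgeR adjusted p was 0.00627, and 0.0388 was the highest with any 1 retina left out. The gene has 1 value per library, so that p16Ink4a and p19Arf transcripts were not separated. In GENCODE M21 these start at 89282192 and 89294653 and share their later exons.

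Cdkn2b (chr4:89306299-89311039) lies 11646 bp from Cdkn2a on the same strand and encodes p15Ink4b. It had 3, 7 and 13 counts in the TKO and 20, 17 and 23 counts in the DKO libraries. TKO 3, at 16.0 normalized counts, was above DKO 2, at 14.9. The log2FC was -1.01 with a 95% interval from -2.15 to 0.13 (edgeR adjusted p = 0.196), and it was not called. Without TKO 3 it was -1.68 (edgeR adjusted p = 0.0443).

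Cdkn2c (chr4:109660876-109667189) stood at 111, 147 and 164 normalized counts in TKO 1, TKO 2 and TKO 3 and at 451, 394 and 265.1 in DKO 1, DKO 2 and DKO 3. The groups did not overlap. The means were 141 ± 27.2 and 370 ± 95.2 (SD, n = 3 each), a 2.62-fold decrease with log2FC -1.39 with SE 0.223 (edgeR adjusted p = 0.0082). The call held with each retina left out, the highest edgeR adjusted p being 0.0430.

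Cdkn2d (chr9:21288410-21291407), the INK4 gene that differentiated neurons express, had the smallest decrease among the genes called. It stood at 303, 369 and 377 normalized counts in TKO 1, TKO 2 and TKO 3 and at 508, 513 and 447 in DKO 1, DKO 2 and DKO 3. The groups did not overlap, and the means of 350 ± 40.8 and 489 ± 36.7 (SD, n = 3 each) gave log2FC -0.49 with SE 0.117 (edgeR adjusted p = 0.0273). The call was lost without TKO 1, TKO 2, DKO 1 or DKO 2, with adjusted p-values from 0.0730 to 0.106 from edgeR.

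Cdkn3 (chr14:46760541-46771669) is expressed in dividing cells. It had 3, 4 and 15 counts in the TKO and 36, 30 and 22 counts in the DKO libraries. The values did not overlap, but TKO 3 at 18.4 normalized counts was next to DKO 3 at 19.0. The log2FC of -1.62 (standard error 0.583) had an adjusted p of 0.0934 from edgeR and did not pass. Without TKO 3 it was -2.74 with an adjusted p of 0.00815 from edgeR.

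**Figure D2:**
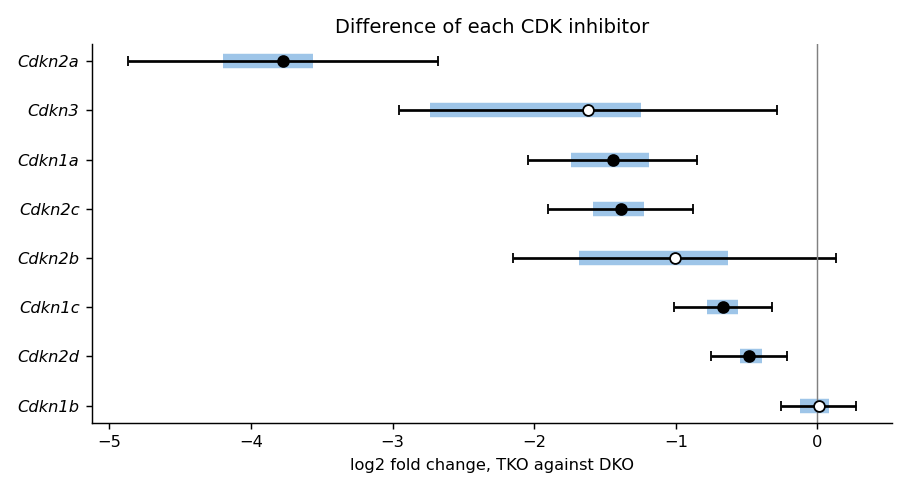
Log2 fold change (log2FC) of each CDK inhibitor between TKO and DKO retinae (horizontal axis), as points with 95% intervals from the edgeR fit, filled where the adjusted p was at most 0.05, and blue bars for the range over 6 fits that each left out 1 retina. The intervals of Cdkn1b and Cdkn2b cross 0, and of the blue bars that of Cdkn1b alone crosses 0.

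To compare levels between genes, normalized counts were divided by the kilobases of annotated exon. In DKO retinae Cdkn2d was highest, at 311 ± 23.3 normalized counts per kilobase (SD, n = 3). It was followed by Cdkn1a at 198 ± 31.0, Cdkn1b at 190 ± 11.9, Cdkn1c at 156 ± 24.2 and Cdkn2c at 138 ± 35.4 normalized counts per kilobase, and each of these overlapped with its neighbour in the order. Cdkn2a was far lower at 19.1 ± 3.13, and Cdkn2b and Cdkn3, which overlapped, had 12.8 ± 1.89 and 11.1 ± 3.14 normalized counts per kilobase. In TKO retinae Cdkn2d at 222 ± 25.9 and Cdkn1b at 191 ± 28.9 normalized counts per kilobase overlapped at the top. Cdkn1c at 98.3 ± 10.6, Cdkn1a at 72.9 ± 28.3 and Cdkn2c at 52.5 ± 10.1 came next, each overlapping with its neighbour. Cdkn2b at 6.42 ± 4.60, Cdkn3 at 3.66 ± 3.55 and Cdkn2a at 1.32 ± 0.669 normalized counts per kilobase were lowest, and Cdkn3 overlapped with each of its neighbours, whereas Cdkn2b and Cdkn2a did not overlap. With the longest transcript as the length, Cdkn1a in DKO retinae was at 339 normalized counts per kilobase and overlapped with Cdkn2d.

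The levels of the 8 genes per kilobase summed to 544, 701 and 699 in TKO 1 to 3 and to 1118, 1087 and 903 in DKO 1 to 3. The share of Cdkn1b in this sum was 29.6 ± 4.26% (SD, n = 3) in TKO and 18.5 ± 2.47% (SD, n = 3) in DKO retinae. The share of Cdkn1a was 11.0 ± 3.18% in TKO and 19.1 ± 0.911% in DKO retinae. Cdkn1c held 15.2 ± 0.527% and 15.1 ± 0.866% of the sum. The largest share was that of Cdkn2d in both genotypes, with 34.4 ± 0.927% in TKO and 30.1 ± 1.29% in DKO retinae. With the longest transcript as the length, Cdkn2d and Cdkn1a held 27.8% and 27.2% in DKO retinae, and Cdkn1a had the larger share in DKO 1. The share of Cdkn1a in TKO retinae was then 16.5%.

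**Figure D3:**
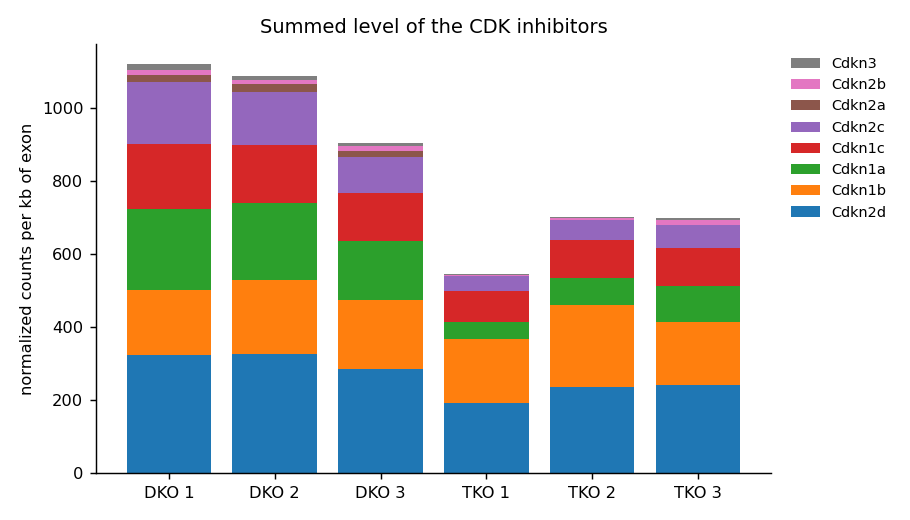
Level of each CDK inhibitor in normalized counts per kilobase of exon (vertical axis, from 0), stacked for each of the 6 retinae. The TKO columns sum to between 544 and 701 and the DKO columns to between 903 and 1118, while the mean of the Cdkn1b segment is 191 in TKO and 190 in DKO.

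The order of the retinae was shared by several of the genes and by the proliferation markers. In the order TKO 1, TKO 2, TKO 3, DKO 3, DKO 2, DKO 1, the sum of the proliferation markers increased at each step. The normalized counts of Cdkn1a, Cdkn2c and Cdkn3 increased at each of these steps too. Cdkn1c and Cdkn2d departed from it at 1 step each, between TKO 2 and TKO 3 for Cdkn1c and between DKO 2 and DKO 1 for Cdkn2d. Cdkn2b departed from it between DKO 3 and DKO 2, Cdkn2a at 2 steps, from TKO 1 to TKO 2 and from DKO 2 to DKO 1, and Cdkn1b showed no such order. In the same order the microglia marker sum increased and the rod marker sum decreased, each except from DKO 2 to DKO 1. The order is thus not particular to the proliferation markers, and the share of all genes that follow it was not counted. All 14 proliferation markers were called lower in TKO retinae, with a median log2FC of -2.60, and 8 were called without TKO 2, DKO 1 or DKO 2. Pcna, Top2a, Mki67 and Mcm2, the members with the largest counts, had log2FC values of -1.27, -3.21, -2.52 and -1.59. In whole retinae, fewer dividing cells and less RNA of a gene per cell cannot be told apart.

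**Figure D4:**
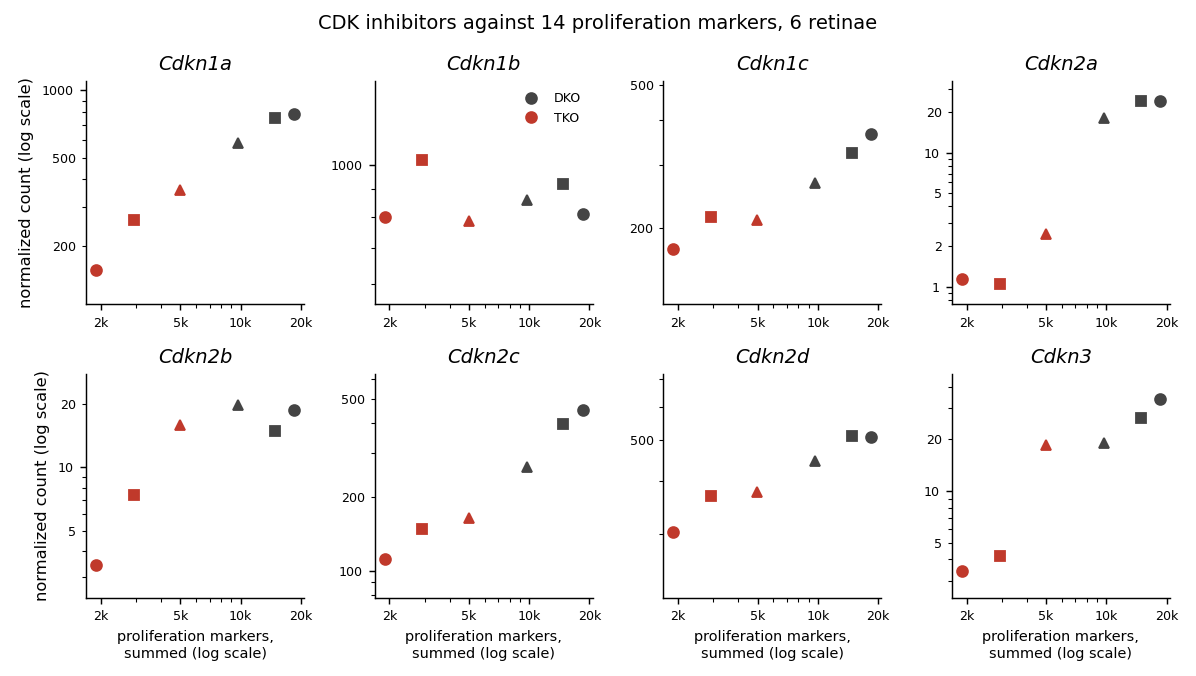
Normalized count of each CDK inhibitor (vertical log axis) against the summed normalized count of 14 proliferation markers (horizontal log axis), with 1 point per retina, DKO in grey and TKO in red, and circles, squares and triangles for replicates 1, 2 and 3. Cdkn1a, Cdkn2c and Cdkn3 rise from each retina to the next along the horizontal axis, and Cdkn1b stays between 787 and 1020.

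Markers of some other cells differed between the genotypes as well. Over all genes tested, 9.2% were called lower and 7.35% higher in TKO retinae, and the marker lists were not counted with a retina left out. Of 8 rod markers, 8 were higher in TKO retinae, with a median log2FC of 1.81. Of 8 Müller glia markers, 4 were higher and 1, Sox9, was lower, with a log2FC of -1.02. Their summed normalized count was 61640 to 66689 in TKO and 42925 to 44404 in DKO retinae. In that sum Glul alone averaged 31230 in TKO and 14069 in DKO retinae. Slc1a3 and Dkk3, at -0.12 and -0.061, were not called. Of 7 microglia markers, 4 were lower, with sums of 1445 to 2419 in TKO and 2600 to 4093 in DKO retinae. Of the cone, bipolar, RPE, endothelium and lens markers, 2 of 7, 2 of 8, 1 of 7, 1 of 6 and 4 of 9 were called higher. None of the amacrine, horizontal and ganglion cell markers was called. Of the blood markers, the 4 haemoglobin genes were at 0 in each library, and Alas2 was called higher. A count of 0 for the haemoglobin genes does not show that the retinae held no blood RNA. The part of these cells in the levels of the CDK inhibitors was not tested. Without TKO 2, the retina with the highest lens marker sum, the log2FC values of Cdkn1a, Cdkn1b, Cdkn1c and Cdkn2c were -1.45, -0.12, -0.72 and -1.42. Those of Cdkn2a, Cdkn2b, Cdkn2d and Cdkn3 were -3.56, -0.89, -0.53 and -1.28, and only Cdkn2a and Cdkn2c were called. TKO 1 and TKO 3, at 630 and 531, still stood above each DKO retina in that sum, through Cryaa, Crybb2, Cryba1 and Crygs. Mip was at 19.5 and 23.3 in TKO 1 and TKO 3 and at 23.6 to 26.4 in DKO retinae. Bfsp1, Bfsp2 and Lgsn in TKO 1 and TKO 3 did not exceed the DKO range either. Lens tissue and genotype were not told apart.

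For each inhibitor, the 3 genes with the most similar log2 level over the 6 retinae were taken by Pearson's r among 14975 other genes. The 6 points fall into the 2 genotypes, and the values of r describe these libraries only. Cdkn1a was closest to Ube2c, Cdc20 and Tcf19 (r = 0.999 for each), the first of which encodes an enzyme and the second an activator of the anaphase-promoting complex. For Cdkn2c these included Ska3, a kinetochore gene, and Slbp, which encodes the histone mRNA-binding protein (r = 0.998 for each). Cdkn2d was closest to Evi2a, Rmi2 and Rgs12, and Cdkn1c to Piwil4, Fam102b and Gdpd2 (r from 0.997 to 0.999). The ranking asked for a mean of at least 10 normalized counts, which Cdkn2a reached through its DKO libraries alone. Cdkn2a, with its few counts, was closest to Pax5, Ubtd2 and Dpysl5. Cdkn2b was closest to Fgfr1, Gm5124 and Id1, and Cdkn3 to Eya4, Plcb3 and Shc2 (r from 0.996 to 0.999 for these inhibitors). For Cdkn1b the closest were Chchd4, Klhdc3 and Tmem65, with r from 0.964 to 0.973 and log2FC values between -0.036 and 0.0058.

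The targets of the inhibitors were mostly lower. For the counts in this and the following lists, the shares over all genes tested were 9.2% called lower and 7.35% called higher. Of 12 CDK and cyclin genes, 9 were called lower and none higher in TKO retinae, with a median log2FC of -1.25. Without TKO 2 or DKO 2, 5 were called lower. The members with the largest counts were Cdk4, Ccnd3, Ccna2 and Ccne2. Cdk4, the partner of the INK4 proteins, averaged 753 ± 122 (SD, n = 3) in TKO and 1597 ± 266 (SD, n = 3) in DKO retinae in normalized counts, with log2FC -1.08 (edgeR adjusted p = 0.00700). The other INK4 partner, Cdk6, had only 18.2 and 19.9 normalized counts and a log2FC of -0.13 (edgeR adjusted p = 0.811). Ccnd3, which encodes cyclin D3, had a log2FC of 0.019, whereas Ccna2 and Ccne2, for cyclins of S phase, had -1.32 and -0.90. Besides Ccnd3 and Cdk6, Ccnd1 was not called, at -0.30, and these last statements name genes chosen after their values were seen.

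Of 11 pocket protein and E2F genes, 4 were called lower and 3 higher, beside 9.2% and 7.35% of all genes. The median log2FC of the 11 was -0.076. None was called in either direction without TKO 2 or DKO 2. Without DKO 1 the count was 1 lower and none higher, and without TKO 1 it was 3 lower and none higher. With robust dispersion, 2 were called lower. The lower genes were E2f1, E2f2, E2f7 and E2f8, with log2FC values from -1.90 to -1.80, named after their values were seen. The higher genes were Rb1, Rbl2 and E2f4, with 0.34, 0.31 and 0.36, and none of them was called with scaling by total counts only. Rb1 was floxed in both genotypes, and its counts do not separate intact from deleted alleles. E2f6, also among the members with the largest counts, had a log2FC of -0.20 and was not called. E2f3 was at -0.076 (edgeR adjusted p = 0.651).

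Of Trp53, its regulators and other p53 targets, 5 of 16 genes were called lower and none higher, beside 9.2% and 7.35% of all genes. The median log2FC of the 16 was -0.16. The number called lower was 2 without DKO 2 and 3 without TKO 1, TKO 2 or DKO 1, and 2 genes were called higher without TKO 3. Trp53 itself fell by 0.84 on the log2 scale (edgeR adjusted p = 0.0048). Eda2r, a death receptor gene, fell by 3.03, from 110 to 13.4 normalized counts (edgeR adjusted p = 0.0048). Phlda3, Aen and Bax, p53 targets with roles in cell death, had log2FC values of -0.91, -0.59 and -0.41. The other 11 genes were not called, Mdm2 among them with a log2FC of -0.020 (edgeR adjusted p = 0.878), named after its value was seen. Cdkn1a had a larger decrease than all of these genes but Eda2r.

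Of 10 genes for ubiquitin ligases that degrade p27Kip1 or p21Cip1, 3 were called lower and 1 higher, beside 9.2% and 7.35% of all genes. Without TKO 2 or DKO 2 the count was 1 lower and none higher, without DKO 1 it was 2 lower and none higher, and 3 were higher without TKO 3 or DKO 3. With robust dispersion, 2 were called higher. Skp2 and Cks1b, which together recognize p27Kip1, had log2FC values of -1.15 and -2.03, and Dtl, the receptor that recognizes p21Cip1, had -2.13. Rnf123, a subunit of another p27Kip1 ligase, had 0.92. The adjusted p-values of these 4 genes ran from 0.01003 to 0.0153 in edgeR. No protein was measured here, and the level of Cdkn1b messenger RNA does not give that of p27Kip1.

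Of 10 Polycomb genes, whose complexes keep the Cdkn2a and Cdkn2b locus silent in many cells, 1 was called lower and 2 higher. Over all genes tested 9.2% were called lower and 7.35% higher, and the count of lower Polycomb genes is near that share. Ezh2, the methyltransferase of dividing cells, had a log2FC of -1.44 (edgeR adjusted p = 0.00798), and Ezh1 and Cbx7 had 0.58 and 0.47. Of 13 regulators of transcription of the inhibitors, Myc, Mycn and Id2 were called lower, with log2FC values of -1.34, -1.18 and -0.91, and none was called higher. Of 5 genes for proteins that bind CDKs, cyclin D1 or the inhibitors, Ccndbp1 and Cdk2ap2 were higher, with 0.74 and 0.98, and Cdk2ap1 was lower, with -0.61. Without TKO 2, DKO 1 or DKO 2, a single Polycomb gene was called lower and no other gene of these lists was called. Without TKO 1 no gene of these lists was called higher, and without TKO 3 the number of regulators called lower was 6. With scaling by total counts only, 2 Polycomb genes were called lower and 1 higher, and 5 regulators were called lower.

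**Figure D5:**
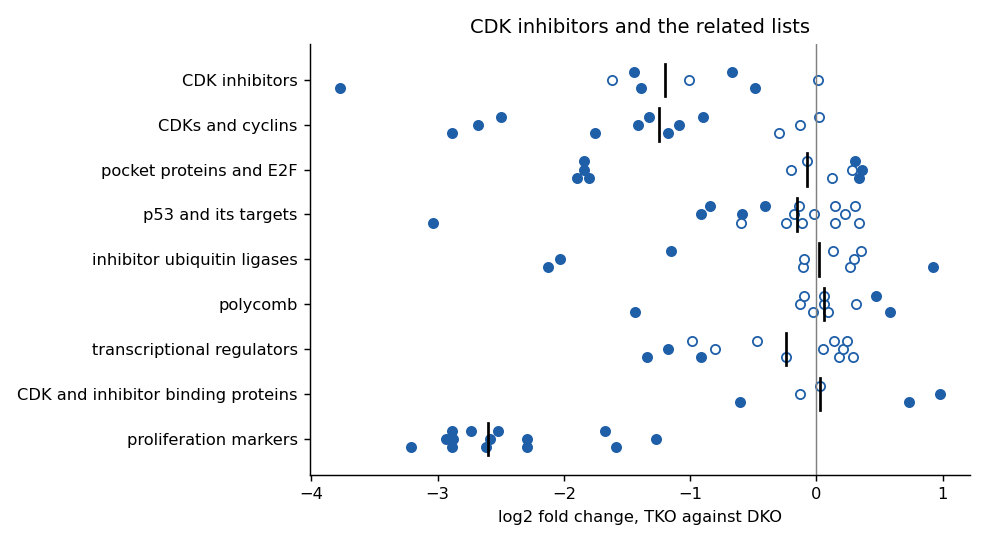
Log2FC between TKO and DKO retinae (horizontal axis) of each gene of the CDK inhibitor family and 8 related lists, with filled points for genes called by edgeR and a black line for the median of a list. The inhibitors, with a median of -1.20, lie beside the CDKs and cyclins at -1.25 and above the proliferation markers at -2.60.

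Among the neighbouring protein-coding genes tested, other than members of the family, Mtap was the one called. The share called over all genes tested was 16.6% in either direction, and the call of Mtap was not examined with a retina left out. Mtap, the protein-coding gene 93390 bp from Cdkn2a, had a log2FC of -0.75 (edgeR adjusted p = 0.0419), and Dmrta1 on the far side of Cdkn2b had under 3 mean normalized counts in each genotype. Kri1, 441 bp from Cdkn2d, had 0.18 (edgeR adjusted p = 0.193). Faf1 beside Cdkn2c and Cnih1 beside Cdkn3 had -0.057 and 0.047 and were not called. Bmp4, on the other side of Cdkn3, had -1.21 (edgeR adjusted p = 0.258) and was not called. Srsf3 beside Cdkn1a had -0.18 and Gpr19 beside Cdkn1b -0.33, and neither was called. Kcnq1 and Slc22a18, the imprinted-region neighbours of Cdkn1c, had under 8 mean normalized counts in each genotype and were not called.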

How the data were processed

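The authors deposited raw counts of genes, listed by symbol, for each of the 6 retinae, with no normalization. According to the methods of the study, read pairs of a stranded mRNA kit were aligned to GRCm38 with STAR (v2.5.2a), with up to 3 alignments allowed, and counted on genes with HTSeq (v0.6.1p1), whereas the submitters' processing notes list TopHat2 and featureCounts. The strand setting of the counting is not given in the sources used here. Genotype and replicate were taken from the sample labels. The deposited counts were tested with edgeR 4.0.16 (R 4.3.3, TMM, quasi-likelihood F test, Benjamini-Hochberg adjustment) on genes with a sum of at least 10, after a test on simulated data. Standard errors (SE) were obtained from the log2 fold change (log2FC) and F. Intervals of log2FC values use the t quantile of that fit. The mean count of the 3 criteria used DESeq2's size factors. DESeq2 1.42.0, other scalings and filters, robust dispersion, a replicate block and each retina left out were alternatives. Coordinates and exon lengths come from GENCODE M21, and promoter sequences from RefSeq, both on GRCm38. In the lists, genes called were named, or the 4 with the largest counts where more than 6 were called. The genes, lists and tests were chosen with earlier results of these data known. Depth ran from 10343907 to 14203098 counts per library, and counting error is largest for Cdkn2a, Cdkn2b and Cdkn3. One of the genes most similar to Cdkn2c is not reported here.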

Additional observations from a re-analysis of the deposited data

How the results depend on the processing

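Cdkn1a, Cdkn1c, Cdkn2a, Cdkn2c and Cdkn2d stayed lower in TKO retinae in each alternative fit that could test them, and DESeq2 also called these 5 genes, with 3 left by the further criteria. Scaling by total counts only shifted all genes, whose median log2FC became -0.17 in place of -0.011, and it called 4 genes of the related lists higher, in place of 8. At an adjusted p of at most 0.01, 2 inhibitors were called, Cdkn2a and Cdkn2c, and 6 at 0.1. With at least 10 counts in every library, Cdkn2a, Cdkn2b and Cdkn3 were not tested. Cdkn1b changed sign with total counts only (-0.15), with upper-quartile scaling (-0.025) and with that filter (-0.0025), and was not called in any fit.

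With 1 retina left out, the number of inhibitors called lower ran from 2 to 7, and with the further criteria from 1 to 5. Leaving out TKO 1 gave 3, TKO 3 gave 7, and TKO 2, DKO 1 or DKO 2 gave 2 each. With the further criteria it was 5 without TKO 3 and 1 without DKO 1 or DKO 2. The log2FC values ran from -1.74 to -1.19 for Cdkn1a, -0.12 to 0.079 for Cdkn1b, -0.78 to -0.56 for Cdkn1c, -4.20 to -3.56 for Cdkn2a, -1.68 to -0.63 for Cdkn2b, -1.58 to -1.22 for Cdkn2c, -0.55 to -0.39 for Cdkn2d and -2.74 to -1.25 for Cdkn3. Of the related genes, 16 to 42 were called lower and 0 to 12 higher, against 39 and 8 with all retinae, and the lowest counts of lower genes came from leaving out TKO 2 (17), DKO 1 (20) and DKO 2 (16).

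When the replicate number entered as a block, 0 inhibitors were called, also with the further criteria, and 1 related gene was called lower and 0 higher, while 106 of 16904 genes (0.627%) were called in all. The log2FC values with the block were -1.49 for Cdkn1a, -0.66 for Cdkn1c, -3.77 for Cdkn2a, -1.37 for Cdkn2c and -0.49 for Cdkn2d, with adjusted p-values of 0.0566 to 0.0797 from edgeR. Deviations of same-numbered retinae correlated at 0.052, -0.045 and -0.16 across genes, which is not a pairing of the retinae.

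With the longest transcript as the length, the levels were 339 and 125 normalized counts per kilobase for Cdkn1a in DKO and TKO retinae, and 24.996 for Cdkn2a and 344 for Cdkn2d in DKO retinae.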
